A study of Homo sapiens with 4 samples.

Results

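The noncoding snoRNA host genes are long RNA genes that make little or no protein and carry small nucleolar RNAs (snoRNAs) in their introns. They were taken from the stranded gene count table by name, as rows called SNHG and a number, GAS5, ZFAS1 or EPB41L4A-AS1. Of 31 matching rows among 60651, 29 had 10 or more reads summed over all libraries and are the members described here, of 22444 genes that reached that sum. SNHG18 and SNHG28 had no reads. The test across all genes took in 26 members, and SNHG14, SNHG22 and SNHG27 had too few reads for it.

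The cells are KP4, an established line labelled as pancreatic ductal adenocarcinoma. Total RNA was made into libraries with an mRNA kit and sequenced, and the tables hold 12 numbered columns, 3 for each of 4 groups. E5 cells under FOLFIRINOX and control cells under FOLFIRINOX were kept for 96 h in SN-38, the form of irinotecan that acts in cells, at 25 nM, with 10 µM of an agent written 5-F and 5 µM oxaliplatin. E5 cells under vehicle and control cells under vehicle had DMSO for 96 h. The series title calls the E5 kind resistant and its text names 5 cycles of treatment. The sources used here do not say which cells went through cycles with DMSO, or whether E5 is a single clone. Nor do they say whether the 3 columns of a group came from separate cultures, so p-values measure the spread between columns, which may be technical.

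In these genes the useful small RNA is cut from the intron after splicing. Box C/D snoRNAs then guide methylation of ribosomal RNA, H/ACA snoRNAs guide conversion of its uridines to pseudouridine, and the related scaRNAs act on spliceosomal RNAs in Cajal bodies. The spliced exons that remain often hold short open reading frames, and several of them, GAS5 first among those studied, are removed by nonsense-mediated decay once ribosomes read them. Many also open with a C followed by pyrimidines, the 5′ terminal oligopyrimidine (TOP) start that ribosomal protein messages carry.

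Library depth was 7359034 to 21775030 gene reads, and mitochondrial transcripts took 4.87% to 6.24% of them. Replicates correlated at 0.9897 or above on log CPM (counts scaled to library size by the TMM method) and libraries of different groups at 0.9759 or below. Of the epithelial markers, KRT18 averaged 482 FPKM (fragments scaled by gene length and depth) in E5 cells under FOLFIRINOX, 390.0 in E5 cells under vehicle, 303 in control cells under FOLFIRINOX and 126 in control cells under vehicle. KRT8 averaged 205 FPKM in E5 cells under FOLFIRINOX, 234 in E5 cells under vehicle, 73.3 in control cells under FOLFIRINOX and 33.3 in control cells under vehicle. Under FOLFIRINOX 2 of the 6 epithelial markers rose and 3 fell in E5 cells, and 4 rose and 2 fell in control cells (edgeR, adjusted p under 0.05). EPCAM and CDH1, which define epithelial cells, stayed at or under 1.23 FPKM in every library. The 6 epithelial markers summed to 662 to 733 FPKM in E5 cells under FOLFIRINOX, 614 to 666 in E5 cells under vehicle, 365 to 409.5 in control cells under FOLFIRINOX and 152 to 179 in control cells under vehicle. The 3 mesenchymal markers summed to 1009 to 1072 FPKM in E5 cells under FOLFIRINOX, 1369.8 to 1445 in E5 cells under vehicle, 1119 to 1213 in control cells under FOLFIRINOX and 1186 to 1289 in control cells under vehicle. The 11 markers of other cell types summed to at most 1.97 FPKM in E5 cells, to 3.14 to 3.52 FPKM in control cells under FOLFIRINOX and to 11.5 to 12.3 FPKM in control cells under vehicle, most of it PTPRC in control cells, and CD3E, PRSS1, CPA1 and INS were listed at 0. The part of these markers in the results below was not tested, and in bulk RNA fewer cells of a kind and less RNA per cell cannot be told apart.

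Members covered a wide range of levels. On the FPKM scale, which allows for gene length, SNHG29 had the highest mean over the 12 libraries at 551 FPKM, followed by GAS5 at 344, ZFAS1 at 308, SNHG1 at 263, SNHG32 at 191 and SNHG5 at 173. SNHG8 at 136 and SNHG6 at 101 came next, 17 members lay between 3.89 and 85.7 FPKM, and SNHG22, SNHG27, SNHG31 and SNHG14 were at 1.60, 0.349, 0.28 and 0.0783. The order changed with the group. In E5 cells under FOLFIRINOX GAS5 averaged 481 ± 4.16 FPKM, above ZFAS1 at 384 ± 16.2 and SNHG1 at 271 ± 4.17, and in control cells under FOLFIRINOX SNHG1 was at 530.2 ± 8.62, above ZFAS1 at 469 ± 15.2 and GAS5 at 466 ± 14.4 (SD, n = 3 each). ZFAS1 and GAS5 overlapped in control cells under FOLFIRINOX. In E5 cells under vehicle GAS5 lay at 189.4 to 192.2 FPKM, just above ZFAS1 at 175.1 to 188.1.

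RefSeq start sites (GRCh38.p14) were at hand for 25 of the 29 members. The windows below run from 40 bases before the start to 25 bases from it. They are a selection of members with and without the TOP-like start, and their mix does not reflect that of all members. SNHG8, SNHG20 and SNHG30, which rose under FOLFIRINOX in both kinds of cells, lack that start and are not shown. The RefSeq windows of GAS5, SNHG3 and SNHG29, which lack it too, are also left out. Capitals mark TATAA where it lies 40 to 20 bases before the start, and the run of pyrimidines from the start where it opens with C and at least 4 more follow. SNHG7 and SNHG1 also open with C and pyrimidines, but fewer than 4 follow the C.
ZFAS1 (chr20:49278602-49278666, plus strand): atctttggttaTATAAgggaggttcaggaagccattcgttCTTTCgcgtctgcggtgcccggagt
SNHG12 (chr1:28581849-28581913, minus strand): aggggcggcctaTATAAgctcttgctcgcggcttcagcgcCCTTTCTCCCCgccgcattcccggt
SNHG5 (chr6:85678709-85678773, minus strand): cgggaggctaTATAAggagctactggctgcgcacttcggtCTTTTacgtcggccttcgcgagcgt
SNHG19 (chr16:2155334-2155398, minus strand): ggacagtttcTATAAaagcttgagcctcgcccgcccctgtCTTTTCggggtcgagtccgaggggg
SNHG32 (chr6:31834876-31834940, plus strand): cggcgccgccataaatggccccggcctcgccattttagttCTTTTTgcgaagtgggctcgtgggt
SNHG7 (chr9:136728160-136728224, minus strand): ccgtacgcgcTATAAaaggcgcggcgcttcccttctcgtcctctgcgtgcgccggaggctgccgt
SNHG1 (chr11:62855861-62855925, minus strand): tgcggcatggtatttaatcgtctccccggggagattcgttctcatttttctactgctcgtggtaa

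The C start with at least 4 pyrimidines was present in 6 of 25 members (24.0%: ZFAS1, SNHG4, SNHG5, SNHG12, SNHG19 and SNHG32), against 4.04% of 27305 RefSeq promoters. TATAA on the sense strand lay 40 to 20 bases before the start in 6 members (24.0%: ZFAS1, SNHG5, SNHG7, SNHG8, SNHG12 and SNHG19), against 4.07% of all. Both stood together in 4 members (16.0%), against 0.0879% of all promoters. Over the 300 bases around the start, the E-box CACGTG, which reads the same on both strands, was in 2 members (8.0%: SNHG7 and SNHG30) against 7.43%, and TGACGT on either strand was in 2 (SNHG21 and SNHG30) against 8.32%. These motifs were picked after the members' starts had been seen, and a match describes letters at an annotated start, not a start used in KP4 cells. GAS5 has no C start at its RefSeq position, but 6 of its 29 GENCODE v29 transcripts open that way, 1056 bases further into the gene for the one shown, and its first 30 bases are given because GAS5 is the TOP host best known from earlier work.
GAS5-226 (chr1:173867960-173867989, minus strand): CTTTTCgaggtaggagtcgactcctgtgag

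Most members were higher under FOLFIRINOX in both kinds of cells. Counts were tested with edgeR's quasi-likelihood test, errors after a log2 change are SE, and a gene rose or fell where the Benjamini-Hochberg adjusted p over all 15636 tested genes was under 0.05. In E5 cells 19 of the 26 tested members rose and 1 fell, beside 25% of all tested genes that rose and 27.3% that fell. In control cells 17 rose and 3 fell, beside 32.6% and 32.7% of all tested genes. The members' median log2 fold change was 0.66 in E5 cells and 0.70 in control cells, and that of all tested genes was 0.0034 in E5 cells and 0.0044 in control cells. The 17 that rose in control cells all rose in E5 cells too, where they were 89.5% of the list, and SNHG3 and SNHG29 rose in E5 cells without rising in control cells. In either direction 20 members were called in each line, 76.9% of those tested, beside 52.3% of all tested genes called in E5 cells and 65.3% in control cells. Together the 29 members made 2191 to 2286 CPM in E5 cells under FOLFIRINOX against 1361 to 1381 CPM under vehicle, and 2353 to 2468 CPM in control cells under FOLFIRINOX against 1615 to 1696 CPM under vehicle. SNHG1, GAS5 and SNHG29 supplied 49.3% to 58.3% of member reads in every library.

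**Figure D1:**
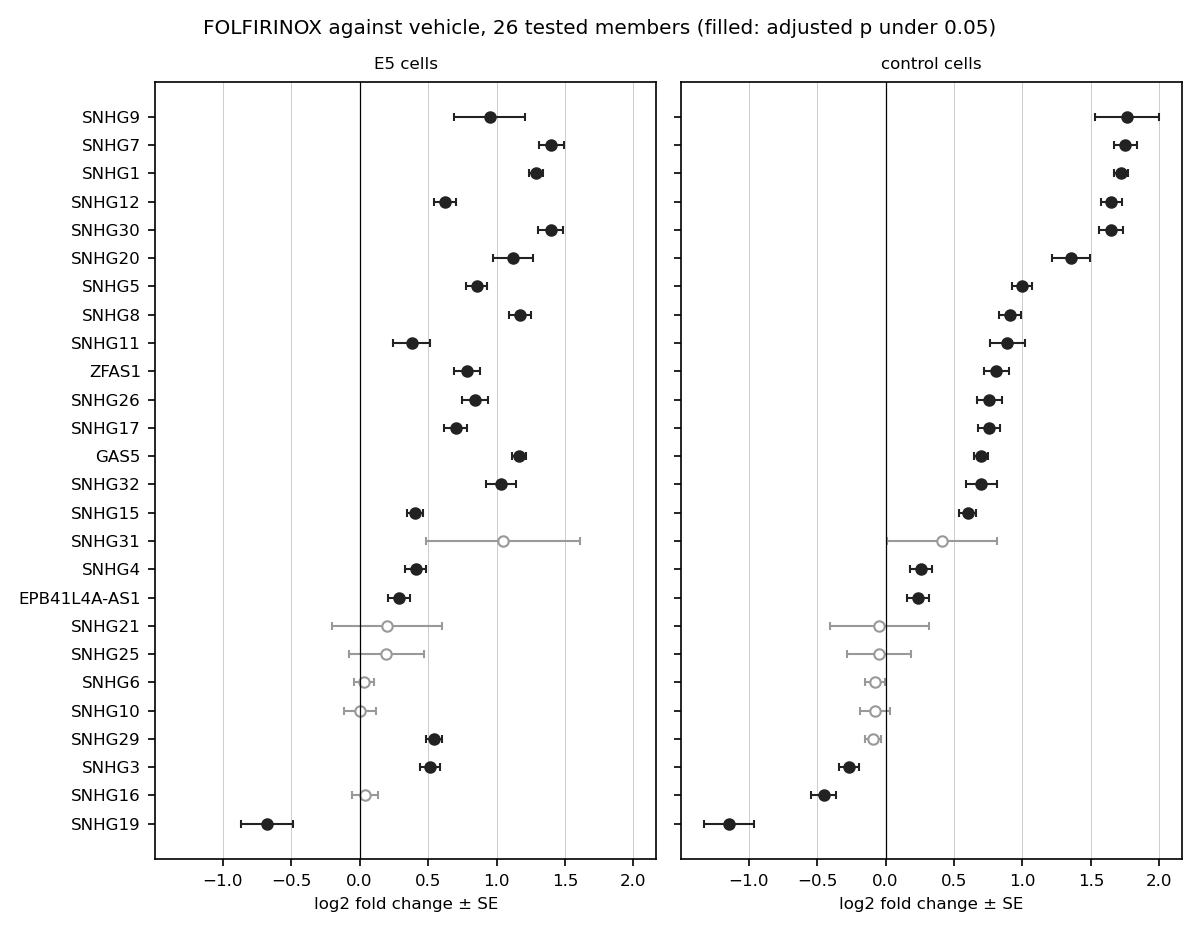
Log2 fold change (± SE) of FOLFIRINOX against vehicle for the 26 tested members, in E5 cells (left) and control cells (right), with filled points where the adjusted p was under 0.05. Most points lie right of 0 in both panels, SNHG19 lies left of it in both, and SNHG3 and SNHG16 are filled left of it in the control panel.

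Among hosts of box C/D snoRNAs alone, SNHG1 and SNHG30 rose most in both kinds of cells. SNHG1 holds SNORD22, SNORD30 and SNORD25 to SNORD28 in its introns. SNHG1 had 299, 301 and 314 CPM in E5 cells under FOLFIRINOX, against 124, 127 and 124 CPM under vehicle. In control cells it had 552, 566 and 551 CPM under FOLFIRINOX, against 172, 162 and 174 CPM under vehicle. All drugged libraries lay above all vehicle libraries, a 2.44-fold rise in E5 cells (log2 1.29 ± 0.052, adjusted p = 1.96e-11) and a 3.29-fold rise in control cells (log2 1.72 ± 0.052, adjusted p = 2.06e-13). SNHG30, the host of SNORD7, was low but moved as far. It had 16.9, 17.4 and 17.3 CPM in drugged E5 cells against 6.29, 6.60 and 6.64 CPM under vehicle, a log2 change of 1.39 ± 0.094 (adjusted p = 5.04e-09). Control cells had 21.5, 21.4 and 21.5 CPM of SNHG30 under FOLFIRINOX against 6.67, 6.45 and 7.44 CPM under vehicle, a log2 change of 1.64 ± 0.088 (adjusted p = 1.08e-10).

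GAS5, growth arrest specific 5, whose RNA can also bind the glucocorticoid receptor, had 296, 291 and 294 CPM in E5 cells under FOLFIRINOX and 132, 131 and 131 CPM in E5 cells under vehicle. Control cells had 275, 272 and 269.7 CPM under FOLFIRINOX and 167, 164 and 172 CPM under vehicle. GAS5 reached similar levels in both kinds of drugged cells and was lowest in E5 cells under vehicle, with a log2 rise of 1.16 ± 0.050 in E5 cells (adjusted p = 3.85e-11) and 0.70 ± 0.050 in control cells (adjusted p = 2.9e-09). No snoRNA row with a GENCODE v29 entry on the same strand lay in the span of GAS5, although the gene is a known host of box C/D snoRNAs. ZFAS1, the host of the SNORD12 family beside ZNFX1, had 56.02, 71.7 and 65.9 CPM in E5 cells under FOLFIRINOX against 35.8, 39.04 and 37.02 CPM under vehicle. In control cells ZFAS1 had 67.8, 75.5 and 64.1 CPM under FOLFIRINOX against 40.5, 36.8 and 41.6 CPM under vehicle. Its rise was nearly the same in both, log2 0.78 ± 0.094 in E5 cells (adjusted p = 2.95e-06) and 0.81 ± 0.092 in control cells (adjusted p = 7.96e-07).

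SNHG5, the host of SNORD50B, had 103, 104 and 110.3 CPM in E5 cells under FOLFIRINOX against 51.4, 63.3 and 59.7 CPM under vehicle. In control cells SNHG5 had 132, 127 and 124 CPM under FOLFIRINOX against 60.5, 63.5 and 67.2 CPM under vehicle. The groups were apart in both, with log2 rises of 0.85 ± 0.074 in E5 cells (adjusted p = 8.76e-08) and 0.999 ± 0.073 in control cells (adjusted p = 4.37e-09). SNHG32, the host of SNORD48 and SNORD52 in the MHC region of chromosome 6, had 66, 70.7 and 70.7 CPM in drugged E5 cells and 34.02, 34.5 and 32.9 CPM in E5 cells under vehicle. Control cells had 37.4, 52.8 and 38.2 CPM of SNHG32 under FOLFIRINOX and 25.8, 24.6 and 29.5 CPM under vehicle. Replicate 2 of the drugged control libraries stood above the other two, and the rises were log2 1.03 ± 0.11 in E5 cells (adjusted p = 8.34e-07) and 0.70 ± 0.11 in control cells (adjusted p = 3.74e-05). The exons of SNHG32 share 418 bases with AL671762.1 on the same strand in GENCODE v29, so its count is uncertain.

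SNHG29, the most abundant member and the host of SNORD49A, SNORD49B and SNORD65, had 615, 616 and 624 CPM in E5 cells under FOLFIRINOX and 439, 413 and 419.8 CPM in E5 cells under vehicle. In control cells it had 542, 599.5 and 545 CPM under FOLFIRINOX and 589.7, 565 and 641 CPM under vehicle. The E5 vehicle libraries stood below the other 9. The drugged E5 libraries lay above the drugged control libraries, but within the range of control cells under vehicle. The log2 change was 0.54 ± 0.058 in E5 cells (adjusted p = 8.23e-07) and -0.090 ± 0.058 in control cells (adjusted p = 0.181). SNHG16, the host of SNORD1A to SNORD1C, had 162, 131 and 153 CPM in drugged E5 cells and 148, 144 and 144 CPM in E5 cells under vehicle. Control cells had 95.3, 98.8 and 104 CPM of SNHG16 under FOLFIRINOX and 138, 155 and 116 CPM under vehicle. SNHG16 fell in control cells (log2 -0.45 ± 0.093, adjusted p = 0.00043), and in E5 cells the 2 groups overlapped (log2 0.039 ± 0.092, adjusted p = 0.747).

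SNHG19, the host of SNORD60, was the one member that fell in both. It had 3.98, 4.34 and 5.21 CPM in E5 cells under FOLFIRINOX against 7.63, 7.42 and 6.55 CPM under vehicle, and 2.31, 5.31 and 3.62 CPM in control cells under FOLFIRINOX against 9.12, 8.07 and 9.78 CPM under vehicle. The log2 change was -0.68 ± 0.19 in E5 cells (adjusted p = 0.00698) and -1.14 ± 0.18 in control cells (adjusted p = 3.85e-05). SNHG19 carries the same C start and TATAA as ZFAS1, SNHG5 and SNHG12, all 3 of which rose in both kinds of cells. The remaining tested hosts of box C/D snoRNAs alone were SNHG26 with SNORD93, which rose by log2 0.84 ± 0.094 in E5 cells (adjusted p = 1.36e-06) and 0.76 ± 0.091 in control cells (adjusted p = 1.56e-06), and SNHG6 with SNORD87. SNHG6 stayed between 43.8 and 51.7 CPM in all 12 libraries, with log2 changes of 0.030 ± 0.072 in E5 cells (adjusted p = 0.747) and -0.078 ± 0.072 in control cells (adjusted p = 0.358).

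**Figure D2:**
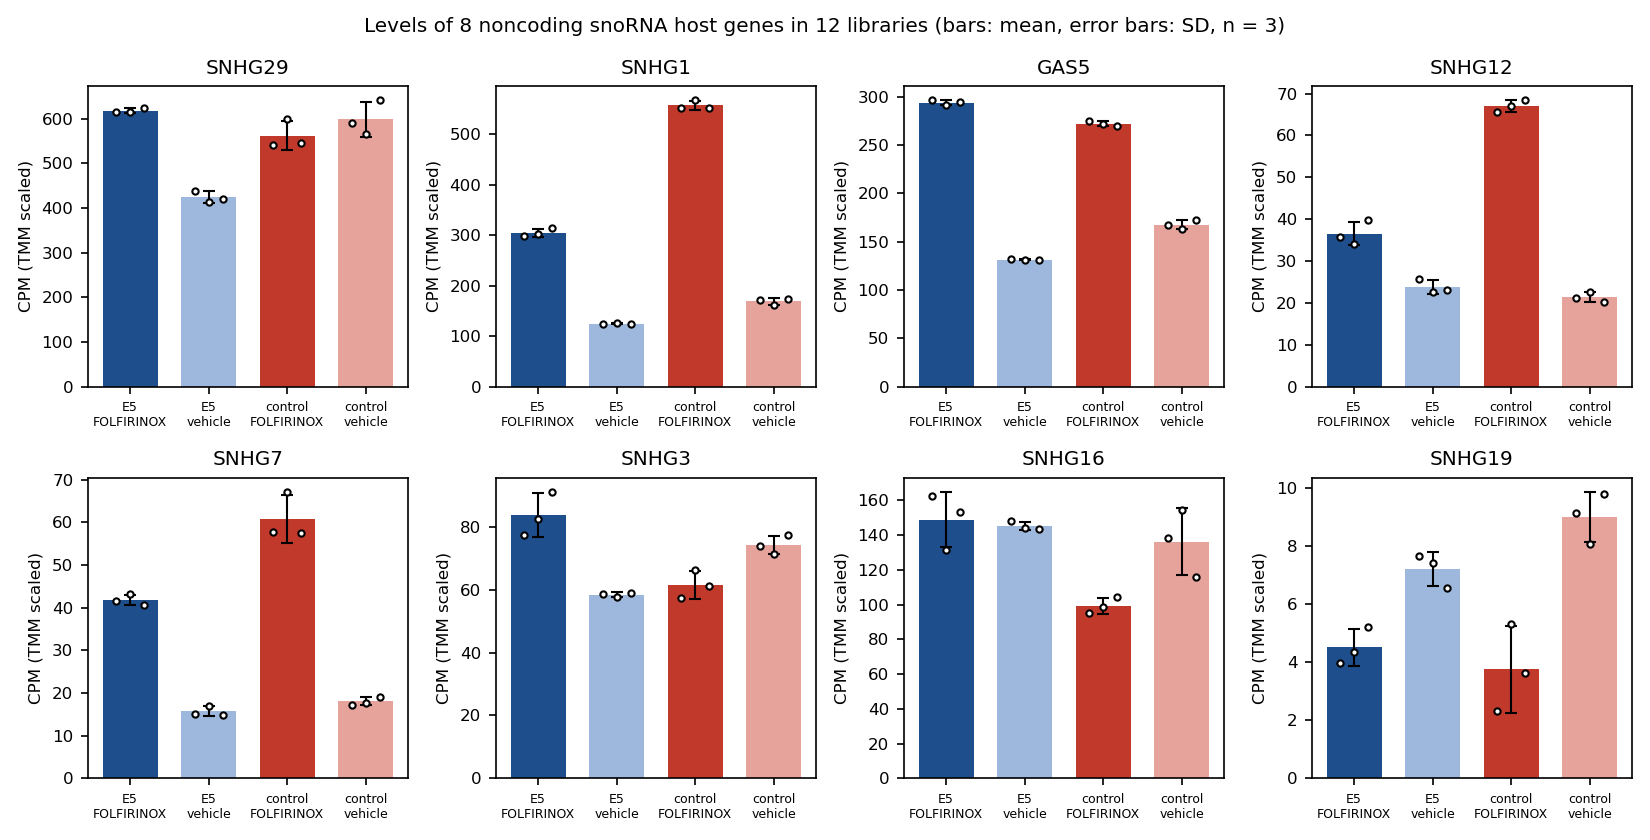
CPM of 8 members in the 12 libraries (points), with the mean (bar) and SD (error bar, n = 3) of E5 cells under FOLFIRINOX, E5 cells under vehicle, control cells under FOLFIRINOX and control cells under vehicle, each panel on its own scale from 0. SNHG1 and SNHG12 stand highest in drugged control cells, GAS5 is high in both drugged groups, and SNHG29 is low in E5 cells under vehicle.

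The tested hosts of H/ACA snoRNAs alone, or of H/ACA and box C/D snoRNAs, rose in both kinds of cells other than SNHG3, SNHG25 and SNHG31. SNHG7, the host of the SNORA17 pair, had 41.5, 43.1 and 40.7 CPM in E5 cells under FOLFIRINOX against 15.1, 17.03 and 14.9 CPM under vehicle. In control cells SNHG7 had 57.6, 67.1 and 57.4 CPM under FOLFIRINOX against 17.2, 17.8 and 19.1 CPM under vehicle. It rose 2.64-fold in E5 cells (log2 1.40 ± 0.088, adjusted p = 2.47e-09) and 3.36-fold in control cells (log2 1.75 ± 0.084, adjusted p = 2.99e-11). SNHG12 holds 3 H/ACA snoRNA kinds and the box C/D snoRNA SNORD99. It had 35.9, 34.2 and 39.7 CPM in drugged E5 cells against 25.9, 22.8 and 23.1 CPM under vehicle, and 65.6, 67.1 and 68.3 CPM in drugged control cells against 21.2, 22.6 and 20.2 CPM under vehicle. The vehicle levels were close and the drugged levels far apart, with log2 rises of 0.62 ± 0.081 in E5 cells (adjusted p = 7.13e-06) and 1.65 ± 0.078 in control cells (adjusted p = 2.82e-11).

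SNHG9, the host of SNORA78, was scarce, at 2.95, 3.42 and 3.73 CPM in E5 cells under FOLFIRINOX against 1.61, 2.14 and 1.28 CPM under vehicle. Its control libraries had 5.66, 6.002 and 4.29 CPM under FOLFIRINOX against 1.56, 1.05 and 2.12 CPM under vehicle. The log2 rise was 0.95 ± 0.26 in E5 cells (adjusted p = 0.00543) and 1.77 ± 0.23 in control cells (adjusted p = 4.34e-06), with wide errors. SNHG15, the host of SNORA9, had 89.9, 84.3 and 86.8 CPM in drugged E5 cells against 66.03, 64.9 and 66.4 CPM under vehicle. Control cells had 71.5, 72.2 and 69.6 CPM of SNHG15 under FOLFIRINOX against 48.5, 44.02 and 48.4 CPM under vehicle. Its 4 groups formed 4 separate ranges, with rises of log2 0.40 ± 0.062 in E5 cells (adjusted p = 3.92e-05) and 0.60 ± 0.063 in control cells (adjusted p = 2.94e-07). SNHG11, the host of SNORA60 and SNORA71E, had 9.82, 9.69 and 9.85 CPM in drugged E5 cells against 8.57, 6.35 and 8.17 CPM under vehicle. Its control values were 10.6, 12.6 and 11.3 CPM under FOLFIRINOX against 6.56, 5.39 and 7.04 CPM under vehicle. The drugged libraries were higher throughout, by log2 0.38 ± 0.13 in E5 cells (adjusted p = 0.0241) and 0.89 ± 0.13 in control cells (adjusted p = 1.27e-05).

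SNHG4, the host of SNORA74A in the MATR3 locus, had 70.6, 66.5 and 83.2 CPM in E5 cells under FOLFIRINOX against 56.6, 54.1 and 55.6 CPM under vehicle. In control cells SNHG4 had 92.3, 86.9 and 97.2 CPM under FOLFIRINOX against 77.7, 79.2 and 74.2 CPM under vehicle. The rises were small, log2 0.41 ± 0.080 in E5 cells (adjusted p = 0.000421) and 0.26 ± 0.078 in control cells (adjusted p = 0.00792), and 626 exon bases shared with MATR3 make its count uncertain. EPB41L4A-AS1, the host of SNORA13, had 29.2, 29.6 and 30 CPM in drugged E5 cells against 23.3, 22.6 and 26.9 CPM under vehicle. Control cells had 30.2, 29.4 and 31.1 CPM of EPB41L4A-AS1 under FOLFIRINOX against 25.1, 27.2 and 24.4 CPM under vehicle. These were the smallest rises called in E5 cells (log2 0.29 ± 0.081, adjusted p = 0.00663) and in control cells (log2 0.24 ± 0.079, adjusted p = 0.0151). SNHG8 with SNORA24 rose by log2 1.17 ± 0.082 in E5 cells and 0.91 ± 0.080 in control cells, and SNHG17 with the SNORA71 family by 0.70 ± 0.083 in E5 cells and 0.76 ± 0.081 in control cells, with adjusted p at or under 2.69e-06.

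SNHG3, the host of SNORA73A and SNORA73B, went in opposite directions. It had 77.4, 82.5 and 91.2 CPM in E5 cells under FOLFIRINOX against 58.5, 57.8 and 59.1 CPM under vehicle, and 57.4, 66.2 and 61.2 CPM in control cells under FOLFIRINOX against 73.95, 71.5 and 77.4 CPM under vehicle. SNHG3 rose in E5 cells (log2 0.52 ± 0.074, adjusted p = 2.13e-05) and fell in control cells (log2 -0.26 ± 0.074, adjusted p = 0.00473), and 242 of its exon bases are shared with RCC1 on the same strand. Among the scaRNA hosts, SNHG20 with SCARNA16 rose by log2 1.12 ± 0.15 in E5 cells (adjusted p = 7.92e-06) and 1.36 ± 0.14 in control cells (adjusted p = 2.56e-07), with 460 exon bases shared with SEC14L1. SNHG10 with SCARNA13 and SNHG21 with SCARNA15 did not pass the test in either, and nor did SNHG25 and SNHG31. SNHG21 shares 768 of its 1053 exon bases with AC105339.2 on the same strand, so its count is uncertain. SNHG22, the host of SCARNA17, was too low for the test, with 13 reads in drugged E5 cells and 1 under vehicle (ratio per gene read 9.79, exact 95% counting interval 1.47 to 416). In control cells SNHG22 had 11 reads under FOLFIRINOX and 1 under vehicle (ratio 12.5, interval 1.82 to 539). SNHG27 and SNHG14 had 3 to 13 reads a group, and their intervals included 1. Intervals cover counting error only.

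Of the drug calls, 4 members lost theirs in some settings. SNHG11 in E5 cells was not called without E5 FOLFIRINOX replicate 1 (log2 0.38) or E5 vehicle replicate 2 (0.23), EPB41L4A-AS1 was not called in E5 cells without E5 vehicle replicate 2 (0.23) or in control cells without control FOLFIRINOX replicate 3 (0.21) or control vehicle replicate 3 (0.20), SNHG19 was not called in E5 cells on FPKM values (-0.49), and the fall of SNHG3 in control cells was lost with total counts as the scale (-0.13) or on FPKM values (-0.0009).

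Of the 26 tested members 2 were higher and 6 lower in E5 cells under vehicle than in control cells under vehicle, shares of 7.69% and 23.1%, beside 22.1% higher and 22.2% lower of all tested genes, and the median was -0.12 for members and -0.0089 for all genes. The 6 lower members were SNHG29 (log2 -0.50 ± 0.058, adjusted p = 1.97e-06), SNHG4 (-0.48 ± 0.080, adjusted p = 0.000116), SNHG1 (-0.44 ± 0.052, adjusted p = 2.72e-06), GAS5 (-0.35 ± 0.050, adjusted p = 2.04e-05), SNHG3 (-0.34 ± 0.075, adjusted p = 0.00118) and SNHG10 (-0.32 ± 0.12, adjusted p = 0.0351). SNHG10 had 10.3, 8.05 and 8.17 CPM in E5 cells under vehicle against 10.6, 10.5 and 11.3 CPM in control cells under vehicle. Under FOLFIRINOX SNHG10 had 8.32, 8.76 and 9.01 CPM in E5 cells and 10.3, 11.2 and 9.20 CPM in control cells. The E5 and control ranges of SNHG10 all but touched under either treatment. The 2 higher members were SNHG15 (0.49 ± 0.064, adjusted p = 7.44e-06) and SNHG32 (0.34 ± 0.12, adjusted p = 0.0231). The 8 called members were 30.8% of those tested, beside 44.3% of all tested genes called in either direction. The SNHG10 call held in 10 of the 20 other settings, and the SNHG32 call was lost without control vehicle replicate 1 (0.32), control vehicle replicate 2 (0.28) or E5 vehicle replicate 2 (0.33).

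Under FOLFIRINOX, 4 members were higher in E5 than in control cells and 7 lower, beside 26.7% and 27.6% of all tested genes, with a median of -0.10 for members and -0.012 for all genes. SNHG12 (log2 -0.87 ± 0.074, adjusted p = 3.46e-08) and SNHG1 (-0.87 ± 0.051, adjusted p = 2.68e-10) were the lowest, at 0.546 and 0.548 of the control level. SNHG9 (-0.66 ± 0.20, adjusted p = 0.0102), SNHG7 (-0.55 ± 0.077, adjusted p = 1.47e-05), SNHG4 (-0.33 ± 0.078), SNHG30 (-0.32 ± 0.078) and SNHG5 (-0.27 ± 0.071) were lower too, the last 3 with adjusted p of at most 0.00396. The higher ones were SNHG32 (0.67 ± 0.11, adjusted p = 4.23e-05), SNHG16 (0.58 ± 0.093, adjusted p = 5.19e-05), SNHG3 (0.44 ± 0.073, adjusted p = 8.35e-05) and SNHG15 (0.29 ± 0.061, adjusted p = 0.000644). GAS5 (0.11 ± 0.049, adjusted p = 0.0675) and SNHG29 (0.14 ± 0.058, adjusted p = 0.0551) did not pass the test here. The 11 called members were 42.3% of those tested, beside 54.3% of all tested genes called in either direction. The SNHG9 call was lost without control FOLFIRINOX replicate 2 (-0.50) or E5 FOLFIRINOX replicate 1 (-0.56), and the SNHG15 call on log2(FPKM + 0.1) values (0.18).

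**Figure D3:**
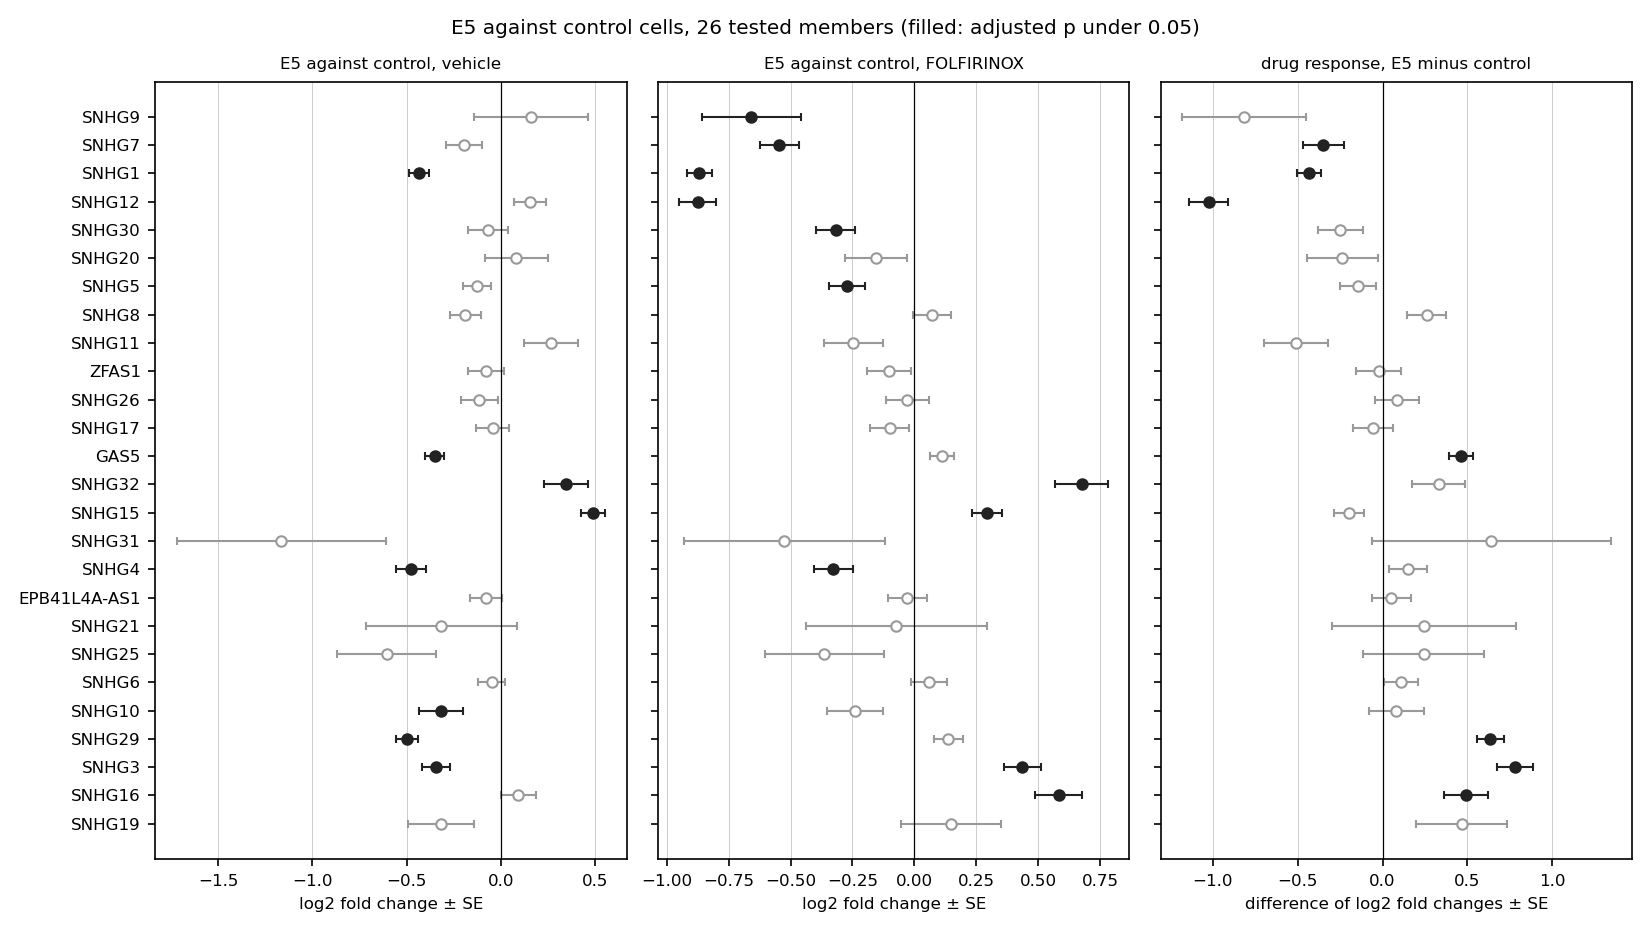
Log2 fold change (± SE) of E5 against control cells under vehicle (left) and under FOLFIRINOX (middle), and the difference of the FOLFIRINOX responses, E5 minus control (right), for the 26 tested members, filled where the adjusted p was under 0.05. SNHG12 and SNHG1 lie furthest left among filled points under FOLFIRINOX, and SNHG3 lies left of 0 under vehicle and right of it under FOLFIRINOX.

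The drug response itself differed between the lines for 7 members. The test of the difference, E5 minus control, was higher for 4 and lower for 3, beside 13.3% and 12.4% of all tested genes (25.7% in all), and with total counts as the scale 4 were higher and 5 lower. The difference had a median of 0.084 for members and 0.0062 for all genes. SNHG3 had the largest positive difference (log2 0.78 ± 0.10, adjusted p = 5.42e-05), being the only member called in opposite directions in the 2 lines. SNHG29 (0.64 ± 0.082, adjusted p = 3.73e-05), SNHG16 (0.49 ± 0.13, adjusted p = 0.0115) and GAS5 (0.46 ± 0.070, adjusted p = 0.000168) were the others with a more positive response in E5 cells. SNHG12 had the largest negative difference (-1.02 ± 0.11, adjusted p = 7.18e-06), and SNHG1 (-0.43 ± 0.072, adjusted p = 0.000411) and SNHG7 (-0.35 ± 0.12, adjusted p = 0.0452) also rose less in E5 cells. SNHG9 (-0.82 ± 0.36, adjusted p = 0.111) did not pass. Of the 7, SNHG7 held its call in 6 of the 20 other settings, SNHG16 lost its call on FPKM values (0.32), and the other 5 kept theirs in all 20.

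Few reads were assigned to the rows of the intronic RNAs themselves in these libraries from an mRNA kit. Many of these rows lie where retained introns make the host's annotated exons. Reads lost there in the counting cannot be told from reads never made, so a low row does not show a scarce RNA. The spans of 28 members held 144 snoRNA or scaRNA rows with a GENCODE v29 entry on the same strand, 84 of them in SNHG14, and 11 rows had 10 or more reads. The test took in 3 of them. SNORA73B, in SNHG3, had 30, 12 and 33 reads in E5 cells under FOLFIRINOX, 9, 18 and 18 in E5 cells under vehicle, 7, 15 and 13 in control cells under FOLFIRINOX and 18, 39 and 32 in control cells under vehicle, from libraries of unequal depth. Its level changed by log2 0.25 ± 0.29 in E5 cells (adjusted p = 0.487) and fell by 1.29 ± 0.29 in control cells (adjusted p = 0.00096), and the 2 responses differed by 1.54 ± 0.41 (adjusted p = 0.0112). SNORD99, in SNHG12, had a log2 change of 0.93 ± 0.44 in E5 cells (adjusted p = 0.0831) and rose by 1.72 ± 0.36 in control cells (adjusted p = 0.000495), and under FOLFIRINOX it was lower in E5 cells (-0.82 ± 0.32, adjusted p = 0.0366). SNORD104, in SNHG25, changed by -0.080 ± 0.33 in E5 cells (adjusted p = 0.871) and by -0.91 ± 0.31 in control cells (adjusted p = 0.0157). SNORA73B and SNORD99 thus had the sign of their hosts' changes wherever they passed the test. SNORD104 passed it in control cells, where its host SNHG25 did not (log2 -0.047 ± 0.23, adjusted p = 0.869). Whether the reads of these 3 rows came from unspliced host RNA or from the small RNA cannot be told apart.

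Genes that work with the snoRNAs gave a comparison. The drug counts here and in the next paragraph stand beside 25% of all tested genes that rose and 27.3% that fell in E5 cells. In control cells 32.6% of all tested genes rose and 32.7% fell, and some lists lay near these shares. DANCR, a noncoding snoRNA host whose name lies outside the rule, rose by log2 1.07 ± 0.079 in E5 cells (adjusted p = 1.36e-08) and by 0.58 ± 0.075 in control cells (adjusted p = 3.47e-06), and the difference was called (0.50 ± 0.11, adjusted p = 0.00323). Of 25 protein-coding hosts that are not ribosomal proteins, 9 rose and 6 fell in E5 cells, and 9 rose and 9 fell in control cells, with medians of 0.097 in E5 cells and -0.11 in control cells. With total counts as the scale 14 of them rose and 4 fell in E5 cells, and 9 rose and 4 fell in control cells. EIF4A1, on that list, had 548 reads over all libraries at group means of 702 to 846 FPKM, so its count is uncertain. WDR43, a factor of small subunit processing, rose by 0.84 ± 0.057 in E5 cells and 0.83 ± 0.057 in control cells, and HSPA8, the constitutive HSC70 chaperone, fell by 0.32 in E5 cells and by 0.74 in control cells. Of 20 ribosomal protein hosts, 11 rose and 3 fell in E5 cells (median 0.26), and 4 rose and 10 fell in control cells (median -0.13, but 7 rose and 7 fell with a median of 0.0025 with total counts as the scale). For 15 of those 20 the difference of the responses was called higher and for 1 lower, beside 13.3% and 12.4% of all tested genes. RPL17, on that list, had 4951 reads over all libraries at group means of 901 to 1446 FPKM. RPL21 had 1937 reads at group means of 571 to 954 FPKM, so the counts of both are uncertain. RPL3, whose transcript hosts several box C/D snoRNAs, changed by -0.73 ± 0.059 in E5 cells and -1.31 ± 0.060 in control cells, and RPL10 rose by 0.26 ± 0.066 in E5 cells and fell by 0.40 ± 0.066 in control cells.

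The 8 core proteins of the snoRNA particles mostly rose. In E5 cells 7 rose, and in control cells 6 rose and 1 fell, with medians of 0.42 in E5 cells and 0.46 in control cells. NOP56, NOP58 and DKC1 are also on the list of protein-coding hosts, as are EEF1B2, EEF2, RACK1 and TPT1 of the TOP messages below. NOP56 and NOP58, of the box C/D particle, rose by 0.67 and 0.61 in E5 cells and by 0.75 and 0.59 in control cells. DKC1, the pseudouridine synthase of the H/ACA particle, rose by 0.65 in E5 cells and 0.64 in control cells. FBL, the methyltransferase of the box C/D particle, was the one that fell in control cells, by 0.25, a call lost with total counts as the scale, and was at 0.091 in E5 cells without passing the test. Among 10 assembly factors 4 rose in E5 cells, and 5 rose and 1 fell in control cells, with ZNHIT6 the highest at 0.89 in E5 cells and 0.85 in control cells. Among 10 factors of nonsense-mediated decay 3 rose and 3 fell in E5 cells, and 2 rose and 4 fell in control cells (4 and 3 with total counts as the scale). UPF3B, which links the decay machinery to exon junctions, rose by 0.85 ± 0.14 in E5 cells and 1.004 ± 0.14 in control cells, and SMG6, the endonuclease of the pathway, fell by 0.57 ± 0.070 in E5 cells and 0.79 ± 0.069 in control cells. Of 5 exon junction proteins 1 rose and 1 fell in each, and with total counts as the scale 2 rose in E5 cells and 3 in control cells, with 1 lower in each. Of 15 tested TOP messages outside the ribosomal proteins, 5 rose and 4 fell in E5 cells (7 and 2 with total counts as the scale), and 5 rose and 7 fell in control cells, with EEF1A1 down by 0.15 in E5 cells and 0.72 in control cells. EEF1G, also on that list, had 0 counted reads at group means of 883 to 1070 FPKM and was not tested. Of the 6 members with a C start and pyrimidine run, 5 rose and SNHG19 fell in both kinds of cells. Of all 26 tested members 19 rose in E5 cells and 17 in control cells. Among all tested genes 25% rose in E5 cells and 32.6% in control cells. Whether the start sequence had a part in the response was not tested.

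**Figure D4:**
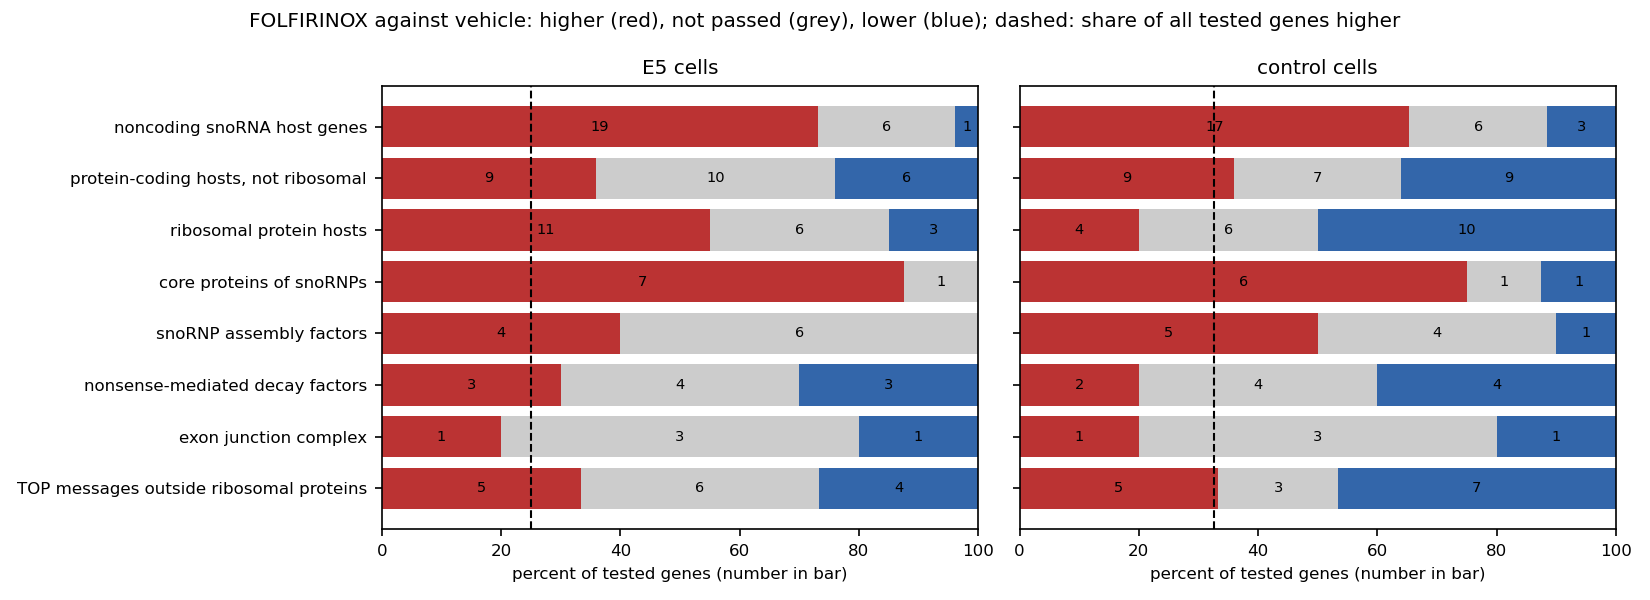
Percent of tested genes called higher (red), not called (grey) and called lower (blue) under FOLFIRINOX in E5 cells (left) and control cells (right), for the members and 7 other lists, with the number of genes in each bar and the share of all tested genes called higher as a dashed line (25% in E5 cells, 32.6% in control cells). The red bars of the members and the core snoRNP proteins reach furthest past the dashed line in both panels, and that of the ribosomal protein hosts does so in E5 cells only.

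The authors' FPKM values, deposited in a table of their own, gave the drug responses a different size for some members. In E5 cells SNHG20 changed by 0.66 on the log2(FPKM + 1) scale, against 1.12 from counts, and EPB41L4A-AS1 by 0.64 against 0.29. In control cells EPB41L4A-AS1 changed by 0.73 on the FPKM scale against 0.24 from counts, ZFAS1 by 1.25 against 0.81, SNHG32 by 1.12 against 0.70, SNHG25 by 0.56 against -0.047 and SNHG21 by 0.53 against -0.045. The median of all genes was itself 0.13 higher on the FPKM scale in control cells and 0.042 higher in E5 cells. For SNHG31 in E5 cells the change was 0.23 with a pseudocount of 1, 0.95 with a pseudocount of 0.1 and 1.05 from counts. The cause of the other gaps was not tested.

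**Figure D5:**
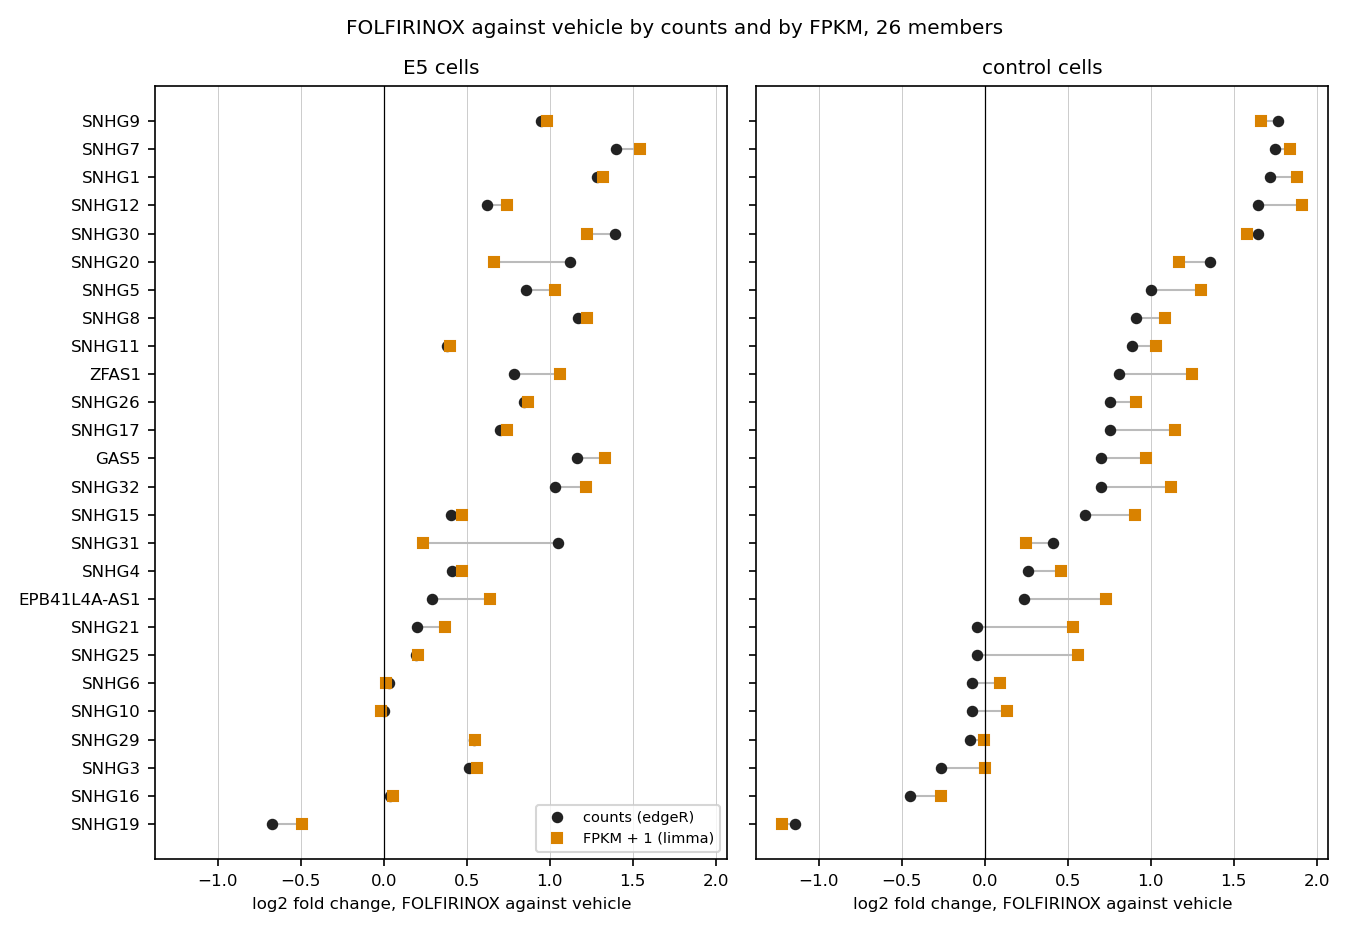
Log2 fold change of FOLFIRINOX against vehicle for the 26 tested members from counts (black circles) and from the authors' values as log2(FPKM + 1) (orange squares), in E5 cells (left) and control cells (right), with a grey line joining the pair of each member. The gap is wide for EPB41L4A-AS1, ZFAS1, SNHG21 and SNHG25 in control cells and for SNHG20 and SNHG31 in E5 cells, where a pseudocount of 0.1 gives 0.95 for SNHG31.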

How the data were processed

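Members, gene lists and tests were chosen with earlier results of these data known. RNA from an RNeasy kit was made into libraries with a KAPA mRNA kit, per the labels. The deposited counts are the authors' unscaled reads per gene, from a table named as stranded. Trimmomatic, STAR (2.5.1b) and the build GRCh38 are listed in the submitters' processing notes. For the deposited FPKM values, and for the authors' rlog values on a log2 scale, no program is named in the labels or headers.

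The 12 columns, tied to 4 GEO samples by their names, were fitted as 12 libraries. Counts were tested with the quasi-likelihood F test of edgeR 4.0.16 (R 4.3.3, TMM scaling, filterByExpr, group means, 1 shared spread), with Benjamini-Hochberg adjustment over the 15636 genes tested and a threshold of 0.05, and the biological coefficient of variation was 7.37%. "Rose", "fell" and "called" mean past that threshold. Pairs of libraries of a group differed by 1.42 to 13.0 times the counting variance, so none was counted as a copy of another. The test was tried on simulated counts first. In all, 20 alternatives were run, among them DESeq2 1.42.0 and limma 3.58.1 on log2(FPKM + 1), log2(FPKM + 0.1) and rlog values.

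Values in every library are given for the 6 members with the highest mean FPKM and for the 3 highest and 3 lowest called log2 changes of each comparison. Gene spans came with the deposited counts, strands and exons from GENCODE v29, and start sites from RefSeq. No sequence of chromosome 8 is shown.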

Additional observations from a re-analysis of the deposited data

Results flagged for a closer look

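For 7 members the response to FOLFIRINOX differed between E5 and control cells by the test of the difference itself (edgeR quasi-likelihood, E5 response minus control response on the log2 scale). They were 26.9% of the tested members, beside 25.7% of all tested genes. SNHG3 differed by 0.78 (adjusted p = 5.42e-05), with a response of 0.52 in E5 cells and -0.26 in control cells, and each line's libraries did not overlap between treatments. That difference held in all 20 alternatives. The fall of SNHG3 in control cells was lost with total counts as the scale (-0.13) or on log2(FPKM + 1) values (-0.0009). SNHG29 differed by 0.64 (adjusted p = 3.73e-05), with 0.54 in E5 cells and -0.090 in control cells. SNHG16 differed by 0.49 (adjusted p = 0.0115), with 0.039 in E5 cells and -0.45 in control cells, and held its call in 18 of the 20 alternatives. GAS5 differed by 0.46 (adjusted p = 0.000168), with 1.16 in E5 cells and 0.70 in control cells. In the other direction SNHG12 differed by -1.02 (adjusted p = 7.18e-06), with 0.62 in E5 cells and 1.65 in control cells, higher with the drug in all 3 libraries of each line. SNHG1 differed by -0.43 (adjusted p = 0.000411), with 1.29 in E5 cells and 1.72 in control cells. SNHG7 differed by -0.35 (adjusted p = 0.0452), with 1.40 in E5 cells and 1.75 in control cells, and held its call in 6 of the 20 alternatives.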

How the results depend on the processing

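None of the member results changed direction while called under any of the 20 alternatives, and 55 of 66 calls held in all of them. On FPKM values with either pseudocount (1 or 0.1) the members lower under FOLFIRINOX in E5 cells numbered 0 in place of 1 by limma, and 0 also at an unadjusted p under 0.05, against 1 by DESeq2. Members with a lower response in E5 than in control cells numbered 5 with total counts as the scale, 6 on log2(FPKM + 1) and 5 on log2(FPKM + 0.1), in place of 3, and the medians of all genes then stood -0.067, -0.10 and -0.13 from those of the TMM fit. In the drug contrast of control cells these scales moved the median of all genes by 0.14, 0.13 and 0.18. With no filter on low counts SNHG22 was called too, giving 20 higher in E5 cells and 18 in control cells.

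Leaving out 1 library at a time, the number higher under FOLFIRINOX ran from 17 to 19 in E5 cells and 16 to 17 in control cells, and the number lower stayed at 1 in E5 cells and ran from 3 to 4 in control cells. Of E5 against control cells, 1 to 2 members were higher and 5 to 7 lower under vehicle, with 1 higher without control vehicle replicate 1 or 2, and 4 to 6 were higher and 6 to 8 lower under FOLFIRINOX. For the difference of responses 4 to 6 were higher and 2 to 5 lower, with 5 lower without control vehicle replicate 3.

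With the replicate number as a block the counts were 19 higher and 1 lower for FOLFIRINOX in E5 cells, 17 and 3 in control cells, 2 and 5 for the lines under vehicle, 4 and 7 under FOLFIRINOX, and 4 and 2 for the difference. The pairing check gave correlations of deviations from -0.19 to 0.15 between same-numbered libraries and -0.22 to 0.24 between others. No shared effect of the number was visible, but with 3 columns a group the check cannot show that libraries were unpaired. Depth limits SNHG9, SNHG21, SNHG25 and SNHG31, with SE of 0.20 or more on the log2 scale, and the 3 members not tested.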
